A study of Mus musculus with 3 samples.

Results

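Tbr1, Eomes and Tbx21 are 3 of the 31055 genes in the count matrices of this series, and they were taken by name, as the T-box transcription factors of the projection neurons of the olfactory bulb (OB). They were described across the clusters and the projection neuron subclusters that the deposited annotation gives. The series holds single-nucleus RNA sequencing of the OB of 3 adult male C57Bl/6 mice, with 1 library per mouse. All 3 mice belonged to 1 group. Each had received a retrogradely transported virus (retroAAV-CAG-H2B-GFP) in the piriform cortex (PCx) and the anterior olfactory nucleus (AON), where bulb projection neurons send their axons, and GFP-positive nuclei were then sorted. There was no uninjected group, so the comparisons are between types of nuclei within mice, and the virus favours neurons with axons in the injected regions, although cells without such axons can carry it too and other nuclei passed the sort.

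T-box factors share a DNA-binding domain, the T-box, that is named after the brachyury gene T. Tbr1 is known from early-born glutamatergic neurons of the cortex, Eomes (also called Tbr2) from the intermediate progenitors that produce such neurons, and Tbx21 (also called T-bet) from T helper cells. All are also known from mitral cells and tufted cells (MCs and TCs), the glutamatergic output neurons of the OB, which carry odor information from the glomeruli to the olfactory cortex.

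The genes lie on different chromosomes of the GRCm38 build. In the GENCODE M21 annotation, Tbr1 (ENSMUSG00000035033) spans chr2:61802930-61814114 on the plus strand, Eomes (ENSMUSG00000032446) spans chr9:118478212-118486132 on the plus strand, and Tbx21 (ENSMUSG00000001444) spans chr11:97098071-97115331 on the minus strand. The longest coding transcript of each has 6 exons. To show what makes them 1 family, 120 coding bases of each member are printed here, 5′ to 3′ on the coding strand. They had the most bases common to all 3 members among the stretches compared, which each began at a codon and lay within 1 exon. They were read from the GENCODE M21 transcripts and lie in exon 3 of each gene, within the part that codes for the T-box, at chr2:61806634-61806753, chr9:118481267-118481386 and chr11:97101479-97101598. Capitals mark the bases at which all 3 members agree.
Tbr1: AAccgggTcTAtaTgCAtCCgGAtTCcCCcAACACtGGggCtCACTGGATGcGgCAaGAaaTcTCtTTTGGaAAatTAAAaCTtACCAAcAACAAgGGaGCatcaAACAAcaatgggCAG
Eomes: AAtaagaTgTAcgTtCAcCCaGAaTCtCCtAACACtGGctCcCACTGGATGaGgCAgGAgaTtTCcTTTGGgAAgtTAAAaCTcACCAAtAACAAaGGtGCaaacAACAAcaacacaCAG
Tbx21: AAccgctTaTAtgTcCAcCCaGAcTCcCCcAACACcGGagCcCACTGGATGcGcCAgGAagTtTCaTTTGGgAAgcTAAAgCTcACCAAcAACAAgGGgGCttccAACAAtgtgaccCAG
All 3 agreed at 76 of the 120 bases (63.3%), and the pairs agreed at 86 to 89 of them. Even so, no run of 31 bases was common to the annotated transcripts of any pair of members, so reads of 1 member do not match the transcripts of another over such a length. One annotated gene overlaps a member: Gm33460, an antisense gene on the minus strand at chr9:118485559-118489099, covers the 3′ end of Eomes. It was counted as a gene of its own, at 916 UMIs in the subclustered nuclei and 72 in all the others. Whether strand was used in the counting is not given in the sources used here, so the reads of Eomes and Gm33460 at their overlap are uncertain.

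Of 44423 called barcodes, 31703 are in the deposited annotation, in 22 clusters. The 5 clusters with the markers of projection neurons (2, 4, 5, 13 and 14) hold the 7504 nuclei that were subclustered, 1559, 4359 and 1586 of them from mice 1, 2 and 3. From marker genes that include no member, 7 of the 10 subclusters could be called M1-like, M2-like and M3-like (mitral), T1-like (tufted) and ET1-like, ET2-like and ET4-like (external tufted). Subclusters 2 and 8 stayed unnamed, and subcluster 9 carried markers of periglomerular cells. Scrublet marked 81.0% of the nuclei of subcluster 2, 80.9% of subcluster 9 and 23.0% of subcluster 8 as doublets, against 0.609% to 14.01% in the 7 named subclusters. Retained nuclei of different mice shared 8 to 39 barcode sequences per pair of mice.

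Across all clusters, the 3 members were concentrated in the projection neurons. In mice 1, 2 and 3, the subclustered nuclei held 44.7%, 33.0% and 50.8% of all UMIs, whereas they held 90.6%, 84.0% and 85.8% of the Tbr1 UMIs. For Eomes the shares were 92.4%, 83.0% and 93.6%, and for Tbx21 they were 96.9%, 92.7% and 96.5%. Tbx21 was among the genes with which the study picked its projection neuron clusters, and the clusters were made from these counts, so the levels in projection neurons against other nuclei are given with no test. Levels are UMIs of the gene per 1000000 UMIs summed over the nuclei of 1 mouse (CPM). They are not divided by transcript length, and they are compared between types of nuclei and not between genes.

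**Figure D1:**
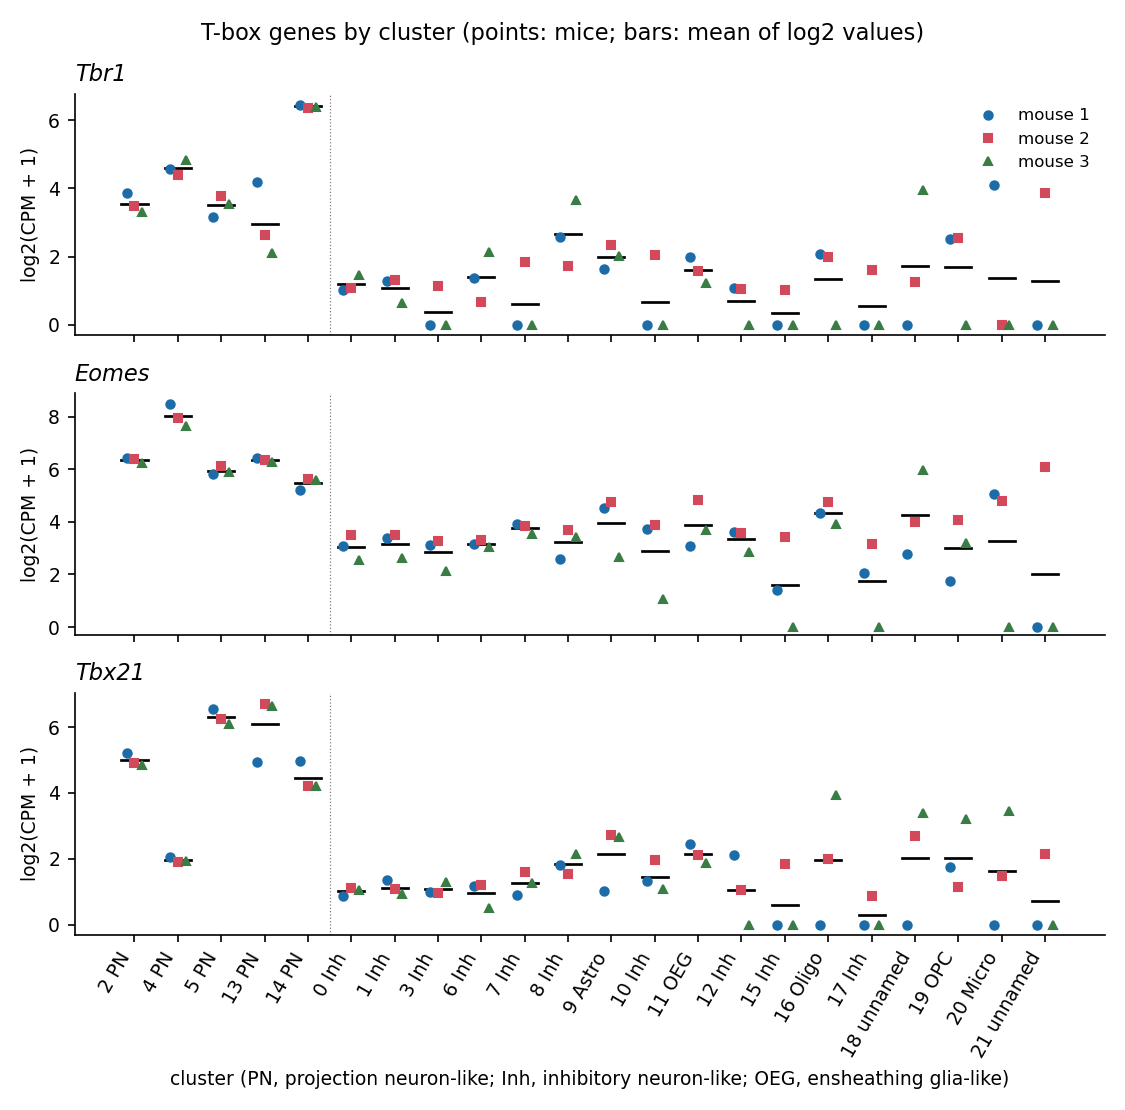
The level of each member on a log2(CPM + 1) scale (y axis) in each of the 22 clusters (x axis), with 1 point per mouse and a bar at the mean of the log2 values. The 5 projection neuron-like clusters are left of the dotted line. Tbx21 in cluster 4 is the lowest of these 5, at 2.91 CPM, while Eomes in the same cluster is at its highest.

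Tbr1 was at 15.7 ± 1.28 CPM (SD, n = 3 mice) in the projection neuron clusters and at 1.67 ± 0.66 CPM in the inhibitory neuron-like clusters. Its highest cluster was 14, at 83.4 ± 2.93 CPM, and the lowest projection neuron cluster was 13, at 17.1, 5.22 and 3.28 CPM in mice 1, 2 and 3, where the value of mouse 1 came from 4 UMIs in 23 nuclei. Outside the projection neurons, 1 inhibitory cluster stood above the other inhibitory ones in its mean. Cluster 8, whose leading genes include Calb1 and Foxp2, had 4.97, 2.31 and 11.7 CPM of Tbr1 in mice 1, 2 and 3. The remaining inhibitory clusters had means of 0.34 to 1.85 CPM. The mean of cluster 8 rested mostly on mouse 3, in which 22 of 261 nuclei had a Tbr1 UMI, and its Eomes (8.84 ± 3.51 CPM) lay among the other inhibitory clusters. Its Tbx21 (2.61 ± 0.76 CPM) was also the highest mean of the inhibitory clusters, the others being at 0.28 to 1.85 CPM.

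Eomes was at 112 ± 21.8 CPM in the projection neuron clusters and at 8.06 ± 2.40 CPM in the inhibitory ones. Cluster 4 had the highest level, at 267 ± 80.5 CPM, and cluster 14 the lowest of the projection neuron clusters, at 44.1 ± 7.13 CPM. In glia, Eomes was at 17.7 ± 11.0 CPM in astrocyte-like nuclei, 19.8 ± 5.79 CPM in oligodendrocyte-like nuclei, 15.5 ± 10.3 CPM in ensheathing glia-like nuclei and 19.7 ± 17.3 CPM in microglia-like nuclei. Oligodendrocyte precursor-like nuclei were lower, at 8.80 ± 6.80 CPM, near the inhibitory level. The 276 nuclei of the unnamed clusters 18 and 21 had 28.4 ± 22.2 CPM of Eomes, with a spread between mice nearly as large as the mean.

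Tbx21 was at 45.5 ± 4.73 CPM in the projection neuron clusters and at 1.28 ± 0.036 CPM in the inhibitory ones. Clusters 5 and 13 were highest, at 78.0 ± 12.4 and 77.0 ± 40.9 CPM, and the library of cluster 13 with 23 nuclei in mouse 1 was at 29.9 CPM, against 103 and 98.2 CPM in mice 2 and 3. Cluster 4 was at 2.91 ± 0.19 CPM, just above the highest of the means of the inhibitory clusters (0.28 to 2.61 CPM). The mean of each glia-like cluster was above that of cluster 4, although many of their libraries held few Tbx21 UMIs. Astrocyte-like nuclei had 1.05, 5.58 and 5.29 CPM in mice 1, 2 and 3, from 1, 30 and 7 UMIs. Ensheathing glia-like nuclei had 4.49, 3.35 and 2.66 CPM, from 3, 17 and 2 UMIs. Cluster 4 had 3.13, 2.76 and 2.86 CPM. It was thus above astrocyte-like nuclei in mouse 1 and above ensheathing glia-like nuclei in mouse 3. Oligodendrocyte-like nuclei had 0, 3.004 and 14.3 CPM in mice 1, 2 and 3, the last from 2 UMIs in 21 nuclei. The cluster with the most Eomes was therefore the projection neuron cluster with the least Tbx21.

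To ask how the members differ among the types of projection neuron, UMI counts were summed per mouse and subcluster and fitted together with edgeR's quasi-likelihood test over the 9 subclusters with at least 10 nuclei in every mouse. The subclusters were formed on the same counts, so the p-values describe how each gene differs between them. All 3 members differed between subclusters, with adjusted p-values (Benjamini-Hochberg over 13715 genes) of 3.0e-12 for Tbr1, 8.9e-15 for Eomes and 5.2e-13 for Tbx21. As 66.6% of all genes tested passed at an adjusted p under 0.05, this places the members with most genes. The pairs of the 7 named subclusters were more selective. A gene was called in a pair at an adjusted p under 0.05 and a log2 fold change beyond 1 in either direction, which 16.7% of the tests over all genes and 21 pairs met. Tbr1 met it in 14 pairs, Eomes in 12 and Tbx21 in 16.

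**Figure D2:**
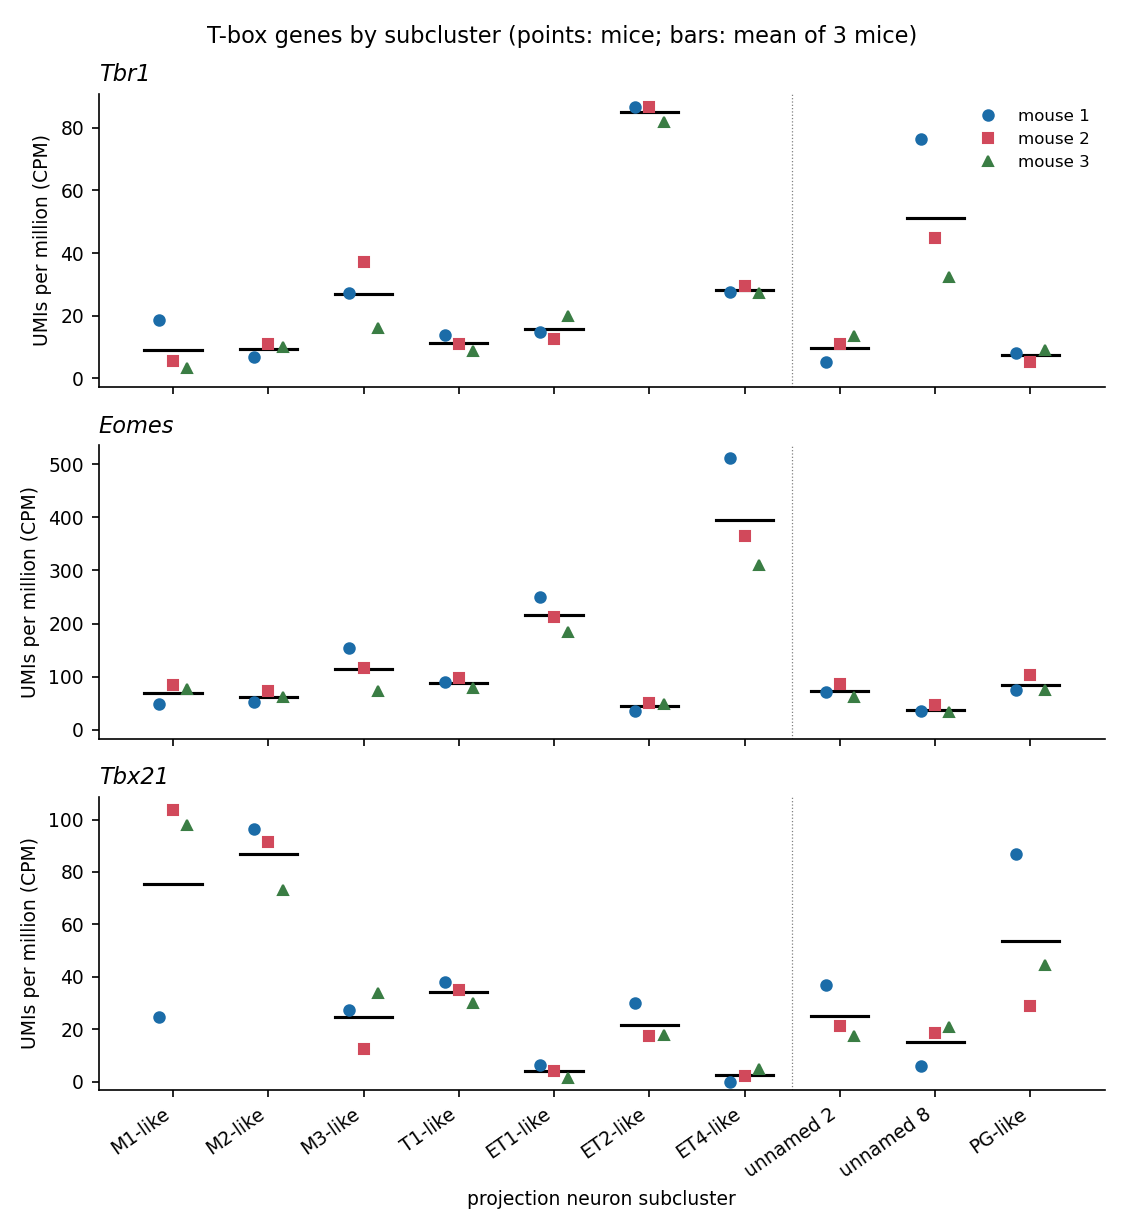
CPM of each member (y axis, linear from 0) in the 10 subclusters (x axis; PG-like, periglomerular-like), with 1 point per mouse and a bar at the mean of 3 mice. Tbr1 stands out in ET2-like nuclei (81.8 to 86.8 CPM), Eomes in ET4-like and ET1-like nuclei and Tbx21 in M2-like and M1-like nuclei, apart from the M1-like library of mouse 1 at 24.8 CPM.

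Tbr1 was highest in the ET2-like nuclei, at 86.8, 86.7 and 81.8 CPM in mice 1, 2 and 3. The ET4-like nuclei had 27.5, 29.6 and 27.2 CPM, and the M3-like nuclei had 27.2, 37.1 and 16.1 CPM. These libraries lie far below every ET2-like library. The ET1-like nuclei followed at 14.8, 12.5 and 19.9 CPM, then the T1-like nuclei at 14.02, 11.1 and 8.75 CPM. The M2-like nuclei had 6.91, 11.0 and 9.91 CPM, and the M1-like nuclei 18.6, 5.51 and 3.39 CPM. The M1-like library of mouse 1 holds only 14 nuclei and 3 Tbr1 UMIs.

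ET2-like nuclei exceeded each of the other 6 named types in Tbr1. The log2 difference was 1.62 ± 0.26 (SE) against ET4-like nuclei (edgeR adjusted p = 7.2e-06) and 4.00 ± 0.33 against M1-like nuclei (edgeR adjusted p = 9.9e-11), which are the nearest and the farthest type. Next in the order, ET4-like and M3-like nuclei did not differ beyond the spread between mice (M3 minus ET4, -0.04 ± 0.32, edgeR adjusted p = 0.96). The same held for M3-like against ET1-like (0.70 ± 0.34, edgeR adjusted p = 0.14, or 1.09 and 0.041 without mouse 3), for T1-like against ET1-like (-0.42 ± 0.28, edgeR adjusted p = 0.37) and for M2-like against T1-like nuclei (-0.22 ± 0.25, edgeR adjusted p = 0.68). M1-like nuclei were below M2-like nuclei by 0.98 on the log2 scale, with an edgeR adjusted p of 0.030, just short of the fold threshold. The pair passed it with the mouse as a term (-1.005, adjusted p = 0.016), without mouse 1 (-1.24, adjusted p = 0.0077), with no filter on low counts (-1.02), with named subclusters only (-1.02) and without the 14-nucleus library (-1.09, adjusted p = 0.015), an alternative chosen after seeing the data. Among the mitral types, M3-like nuclei were higher than M1-like nuclei (M1 minus M3, -2.33 ± 0.39) and than M2-like nuclei (M2 minus M3, -1.34 ± 0.33, edgeR adjusted p = 0.0023). Mouse 2 carried part of the calls of M3-like nuclei: without it the difference from M2-like nuclei was -1.08 (adjusted p = 0.16) and the difference from T1-like nuclei went from 1.12 (adjusted p = 0.0078) to 0.69 (adjusted p = 0.37). With no filter on low counts the latter was 0.97, under the fold threshold. M1-like against T1-like nuclei went from -1.21 (adjusted p = 0.0048) to -1.47 (adjusted p = 0.059) without mouse 2, in the same edgeR fit.

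Eomes was highest in the ET4-like nuclei, at 512, 366 and 309 CPM. The ET1-like nuclei came second, at 249, 212 and 185 CPM. All 6 of these libraries were above every library of the other named types. The M3-like nuclei had 154, 117 and 74.1 CPM, and the T1-like nuclei 90.4, 97.1 and 79.0 CPM. The M1-like nuclei had 49.5, 83.7 and 76.5 CPM, and the M2-like nuclei 53.3, 72.9 and 61.5 CPM. At the low end were the ET2-like nuclei, with 35.9, 51.1 and 48.0 CPM, so the external tufted types hold both ends of the order.

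The log2 difference of Eomes between ET2-like and ET4-like nuclei was -3.05 ± 0.21 (edgeR adjusted p = 6.1e-13), the largest of the 21 pairs. ET2-like nuclei were also below ET1-like nuclei by far (ET1 minus ET2, 2.33 ± 0.21). ET4-like nuclei exceeded ET1-like nuclei by less than the fold threshold (ET1 minus ET4, -0.72 ± 0.18, edgeR adjusted p = 0.0027). In each mouse the order was the same, ET4-like above ET1-like nuclei. Among the mitral types and T1-like nuclei no pair was called. M2-like nuclei were below M3-like nuclei by an amount short of the fold threshold (M2 minus M3, -0.61 ± 0.21, edgeR adjusted p = 0.023), and M2-like minus T1-like was -0.46 ± 0.18 (0.084). M1-like against M3-like nuclei gave -0.37 ± 0.22 (edgeR adjusted p = 0.24), M1-like against M2-like nuclei 0.24 ± 0.20 (edgeR adjusted p = 0.42), M1-like against T1-like nuclei -0.22 ± 0.19 (0.46) and M3-like against T1-like nuclei 0.15 ± 0.20 (0.62). The following 3 calls were near the threshold. M3-like nuclei were above ET2-like nuclei by 1.22, and by 0.89 without mouse 1. T1-like nuclei were above ET2-like nuclei by 1.07, and by 0.96 without mouse 1 and 0.93 when scaled by library size. M3-like were below ET1-like nuclei (-1.11), a difference of -0.91 when scaled by library size.

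Gm33460, the antisense gene over the end of Eomes, was at 15.9 CPM in the pooled ET4-like nuclei and 12.2 CPM in the ET1-like nuclei, and at 2.81 CPM in the M1-like and 5.36 CPM in the ET2-like nuclei. It differed between subclusters as well (edgeR adjusted p = 1.4e-07). Its part in the counts of Eomes was not tested.

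Tbx21 was highest in the mitral types M1 and M2. The M2-like nuclei had 96.3, 91.4 and 73.0 CPM, and the M1-like nuclei 24.8, 104 and 98.0 CPM. The low M1-like value is again the library of 14 nuclei, and it rests on 4 Tbx21 UMIs. T1-like nuclei had 38.1, 34.8 and 29.99 CPM, M3-like nuclei 27.2, 12.4 and 33.8 CPM and ET2-like nuclei 30.1, 17.6 and 17.6 CPM. ET1-like nuclei had 6.28, 3.95 and 1.46 CPM. In the ET4-like nuclei of mouse 1 there was no Tbx21 UMI, which allows up to 1.20 CPM, and in mice 2 and 3 there were 2.05 and 4.89 CPM from 12 and 7 UMIs. Limits of this kind cover counting error only. In all nuclei outside the projection neurons of the same mice, Tbx21 was at 1.298, 1.58 and 1.71 CPM. Against that pool, ET1-like nuclei were higher in mice 1 and 2 and ET4-like nuclei in mice 2 and 3. Astrocyte-like nuclei alone had 1.05, 5.58 and 5.29 CPM, from 1, 30 and 7 UMIs. These values were above ET4-like nuclei in each mouse and above ET1-like nuclei in mice 2 and 3.

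Between M1-like and M2-like nuclei no difference in Tbx21 was found (0.03 ± 0.27 on the log2 scale, edgeR adjusted p = 0.96, or 0.14 without the 14-nucleus library). The 95% interval of the difference ran from -0.50 to 0.56. Both were above each of the other 5 named types. M2-like nuclei exceeded T1-like nuclei by 1.39 ± 0.26 (edgeR adjusted p = 1.9e-04), M3-like nuclei by 2.21 ± 0.38 and ET4-like nuclei by 5.66 ± 0.43 (edgeR adjusted p = 4.7e-12). T1-like, M3-like and ET2-like nuclei formed a middle group, in which no pair was called: M3-like minus T1-like was -0.82 ± 0.39 (edgeR adjusted p = 0.11), M3-like minus ET2-like 0.08 ± 0.46 (0.94) and T1-like minus ET2-like 0.90 ± 0.33 (0.036, short of the fold threshold). Without mouse 1, T1-like minus ET2-like was 1.02 and passed. Each of these types was above ET1-like and ET4-like nuclei, by 2.225 ± 0.47 for ET2-like against ET1-like nuclei (edgeR adjusted p = 3.5e-04). M3-like against ET1-like nuclei was at 2.31 ± 0.54, and at 1.68 with an adjusted p of 0.073 without mouse 3. ET1-like minus ET4-like was 1.15 ± 0.65 (edgeR adjusted p = 0.21), from few UMIs.

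**Figure D3:**
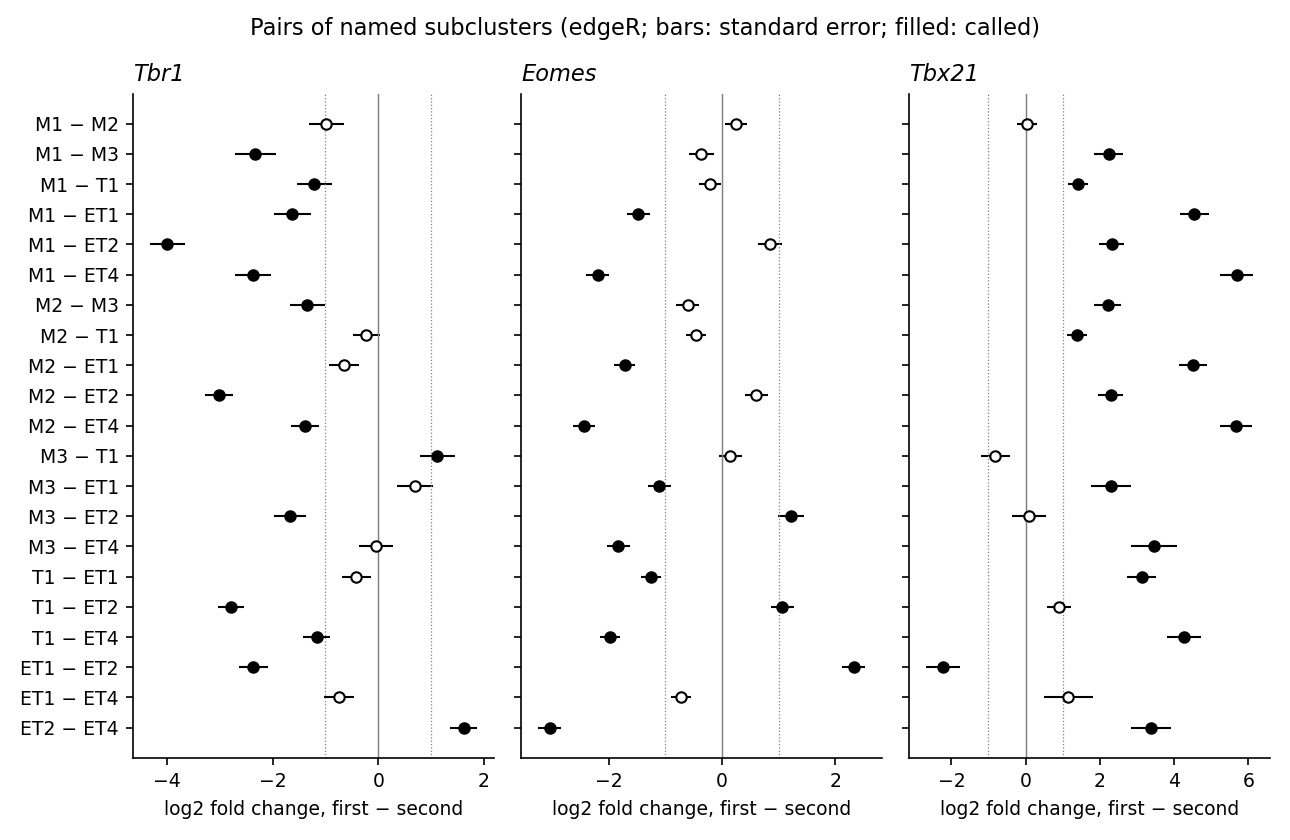
Log2 fold change of each member (x axis, first type minus second type) in the 21 pairs of named subclusters (y axis), with the standard error of the edgeR fit as bars. Filled points were called (adjusted p under 0.05 and beyond the dotted lines at 1 and -1), and open points were not. In the M1 − M2 row Eomes and Tbx21 lie near 0, while every pair with ET2 is filled for Tbr1.

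Averaged over the 3 mitral types against the 4 tufted types, the members went different ways. Tbx21 was higher in mitral types, with a log2 difference of 2.74 ± 0.24 (edgeR adjusted p = 2.1e-10), and 5.69% of all genes were called in that direction. Tbr1 was higher in tufted types (mitral minus tufted, -1.20 ± 0.17, edgeR adjusted p = 1.4e-06), and 3.57% of all genes were called in that direction. Eomes was also lower in mitral types (-0.72 ± 0.11, edgeR adjusted p = 4.4e-06) but short of the fold threshold. The libraries of the classes overlap for every member. Mitral libraries ran from 12.4 to 104 CPM of Tbx21 and tufted ones from 0 to 38.1 CPM. For Tbr1 the ranges were 3.39 to 37.1 and 8.75 to 86.8 CPM, and for Eomes 49.5 to 154 and 35.9 to 512 CPM. The averages cover types that differ from each other. Among the 4 tufted types, the means of Tbr1 ran from 11.3 CPM in T1-like to 85.1 CPM in ET2-like nuclei, and those of Eomes from 45.0 CPM in ET2-like to 396 CPM in ET4-like nuclei. The means of Tbx21 ran from 24.5 CPM in M3-like to 86.9 CPM in M2-like nuclei among the mitral types, and from 2.31 CPM in ET4-like to 34.3 CPM in T1-like nuclei among the tufted types. M3-like nuclei thus had a lower mean of Tbx21 than T1-like nuclei, a pair that was not called.

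The unnamed subclusters had mixed profiles, and the M3-like nuclei also differed by cluster when pooled. The 70 M3-like nuclei from cluster 2, 28.6% of them marked as doublets, had 0 Tbr1 UMIs and 48.7 CPM of Tbx21 (11 UMIs). The 223 from cluster 5 had 31.7 CPM of Tbr1 and 19.2 CPM of Tbx21. Subcluster 8, with 22, 51 and 53 nuclei, had 76.5, 44.7 and 32.2 CPM of Tbr1, second to the ET2-like nuclei in its mean, together with low Eomes (35.3, 46.9 and 33.0 CPM) and low Tbx21 (5.88, 18.6 and 20.9 CPM). It was itself mixed when its nuclei were pooled by cluster. The 71 from cluster 4 had 65.5 CPM of Tbr1 and 2.40 CPM of Tbx21, and the 23 from cluster 5 had 17.4 and 25.1 CPM. The 21 from cluster 2 had 29.7 and 13.7 CPM. Their Tbr1 value rested mostly on 3 nuclei of mouse 1, with 159, 14.8 and 4.17 CPM in mice 1, 2 and 3. Subcluster 2 drew on several clusters. Its pooled nuclei kept the order of the clusters they came from in Eomes and Tbx21, but at lower levels than those clusters. The 450 nuclei from cluster 2 had 55.9 CPM of Eomes and 21.6 CPM of Tbx21, where cluster 2 had means of 81.8 and 30.9 CPM. The 322 nuclei from cluster 4 had 158 CPM of Eomes and 2.17 CPM of Tbx21, whereas the 161 nuclei from cluster 5 had 44.3 CPM of Eomes and 53.2 CPM of Tbx21. In subcluster 2 the summed level of 5 inhibitory neuron markers was 1667, 1909 and 1478 CPM in the 3 mice, against 58.8 to 826 CPM over the libraries of the 7 named subclusters. Without its marked doublets, 16, 154 and 9 nuclei of subcluster 2 were left in mice 1, 2 and 3, and the means were 134 CPM of Eomes in place of 73.1 CPM, 13.95 in place of 9.87 CPM of Tbr1 and 17.2 in place of 25.2 CPM of Tbx21. With so few nuclei in mice 1 and 3, these means are imprecise. The part of inhibitory neuron RNA in this profile was not tested. The summed astrocyte markers ran from 22.4 to 308 CPM over the named subclusters, with ET2-like and M1-like nuclei highest, and were 259 to 625 CPM in subcluster 8. Their part in the high Tbr1 of ET2-like nuclei and subcluster 8 was not tested. The 89 periglomerular-like nuclei had 8.27, 5.27 and 8.93 CPM of Tbr1, 74.5, 103 and 75.9 CPM of Eomes and 86.9, 29.0 and 44.7 CPM of Tbx21. Without marked doublets, 1, 12 and 4 of these nuclei were left in mice 1, 2 and 3, too few to give a level.

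Median depth ran from 5915 UMIs per nucleus (M3-like) to 20781 (M2-like), so detection was compared after each nucleus was thinned to 3000 UMIs. After thinning, a Tbr1 UMI was found in 22.8 ± 2.61% of ET2-like nuclei (SD, n = 3 mice) and in 1.10 ± 1.496% of M1-like nuclei. Eomes was found in 61.0 ± 8.70% of ET4-like, 45.3 ± 4.82% of ET1-like and 14.8 ± 4.89% of ET2-like nuclei. Tbx21 was found in 19.2 ± 3.56% of M2-like, 17.0 ± 8.66% of M1-like, 8.30 ± 2.24% of T1-like and 0.44 ± 0.48% of ET4-like nuclei. The thinned shares follow the order of the levels at their extremes. In oligodendrocyte-like nuclei (median depth 5441 UMIs) and microglia-like nuclei (3405 UMIs) the thinned shares were 0.88 ± 1.11% and 0% for Tbr1, 4.54 ± 4.28% and 9.52 ± 10.0% for Eomes, and 0.17 ± 0.29% and 0.48 ± 0.82% for Tbx21. Tbx21 was found in 0.69 ± 0.69% of ET1-like nuclei and in 0.40 ± 0.093% of inhibitory neuron-like nuclei. The shares of ET1-like and ET4-like nuclei were thus low and overlapped those of other nuclei at this depth, and expression was not told from free RNA. At full depth Tbx21 was found in 3.46 ± 2.62% of ET1-like, 1.74 ± 1.90% of ET4-like, 1.91 ± 2.52% of oligodendrocyte-like and 0.888 ± 0.052% of inhibitory neuron-like nuclei. Eomes was then found in 87.95 ± 3.47% of ET4-like nuclei, Tbr1 in 58.8 ± 7.23% of ET2-like nuclei and Tbx21 in 62.1 ± 5.70% of M2-like nuclei. Thinning left out 102 of the 7504 nuclei, 68 of them M3-like.

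**Figure D4:**
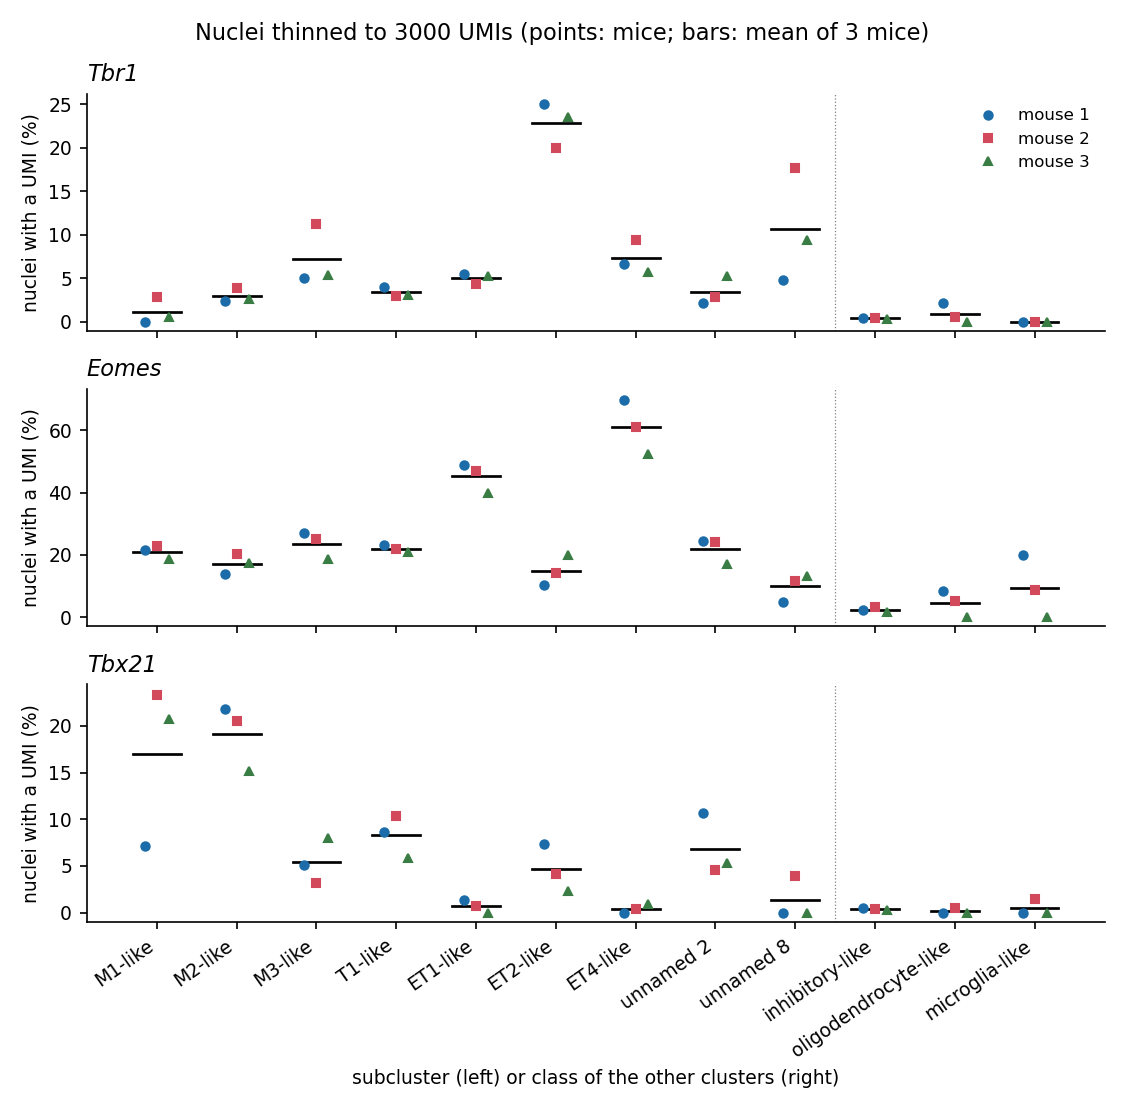
Percent of nuclei with at least 1 UMI of each member after thinning to 3000 UMIs (y axis) in 9 subclusters and in 3 classes of other nuclei (x axis), with 1 point per mouse and a bar at the mean. Eomes reaches 61.0% in ET4-like nuclei, where Tbx21 is at 0.44%, at the level of the inhibitory, oligodendrocyte-like and microglia-like nuclei.

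The members were then counted in the same nucleus. Over all subclustered nuclei at full depth, 2.30 ± 0.46% had UMIs of all 3 members, 26.1 ± 1.58% of exactly 2, 50.7 ± 2.89% of 1 and 20.8 ± 1.61% of none. Tbr1 and Tbx21 shared 3.81 ± 0.28% of nuclei, below the product of their single shares (4.95 ± 0.43%). Tbr1 and Eomes shared 10.2 ± 1.04% against a product of 10.6 ± 0.90%, and Eomes and Tbx21 shared 19.0 ± 1.70% against 18.8 ± 0.76%. After thinning to 3000 UMIs both pairs that include Tbx21 were below their products: 0.19 ± 0.064% against 0.46 ± 0.057% for Tbr1 and Tbx21, and 1.75 ± 0.077% against 2.47 ± 0.49% for Eomes and Tbx21. Within single types the shares were on either side of the product. In M2-like nuclei at full depth, Eomes and Tbx21 shared 38.8% of nuclei (mean of 3 mice), where the product was 36.1%. In ET2-like nuclei, Tbr1 and Eomes shared 19.1% where the product was 18.3%, and Tbr1 and Tbx21 shared 9.75% where it was 10.1%. After thinning, joint detection within a type was too rare to read closely. Tbr1 and Tbx21 shared 0.087 ± 0.15% of M2-like nuclei against a product of 0.573 ± 0.21% at 3000 UMIs, 1.18 ± 0.73% against 1.29 ± 0.43% at 5000 UMIs and 8.80 ± 2.68% against 8.49 ± 2.01% at full depth. At 5000 UMIs, Tbr1 and Eomes shared 6.13 ± 2.29% of M3-like nuclei against 3.65 ± 1.69%, with 176 nuclei left. The side of the product changed with depth for this pair in M3-like nuclei. The share was 0.40 ± 0.69% against 0.56 ± 0.31% at 2000 UMIs and 1.40 ± 1.77% against 1.73 ± 0.96% at 3000 UMIs. At full depth it was 5.86 ± 0.15% against 4.85 ± 1.52%. Nuclei of 1 mouse are not replicates and depth differs between nuclei, so these values are descriptions with no test.

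**Figure D5:**
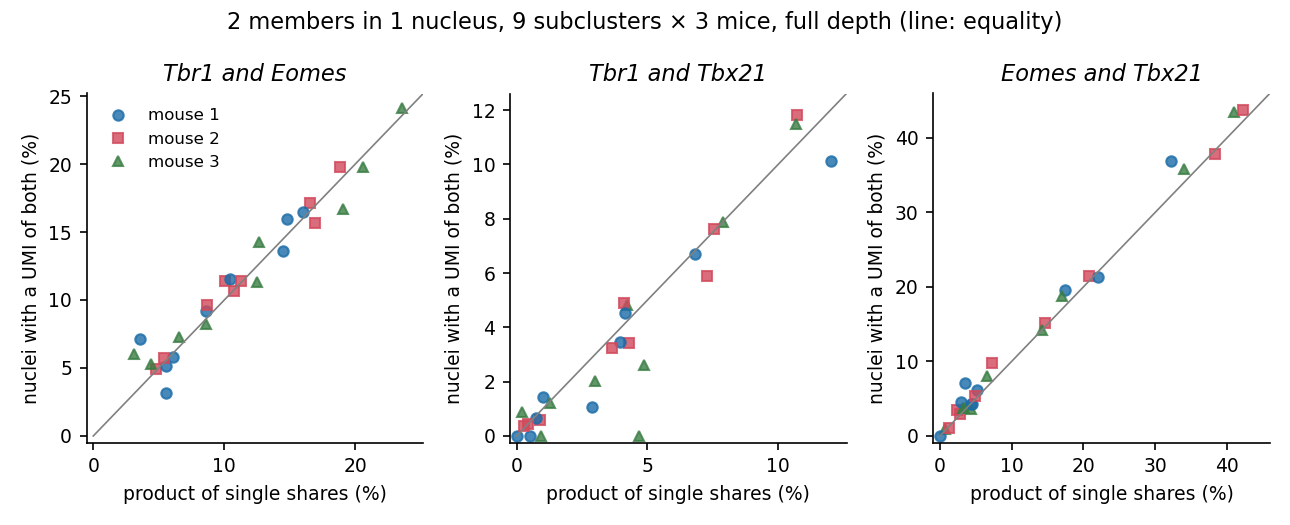
Percent of nuclei with a UMI of both members (y axis) against the product of their single shares (x axis) for each pair of members, with 1 point per mouse and subcluster (9 subclusters, 3 mice, full depth). Points near the line of equality show that members were found together about as often as their single shares give, within a subcluster.

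Of the 14 other T-box family genes on the list, 2 had enough UMIs to be tested. Mga, which codes for a large factor that carries a T-box together with a domain that binds Max, was at 70.6 CPM in the subclustered nuclei and 84.6 CPM in the others. It differed between subclusters (edgeR adjusted p = 0.018), from 54.3, 55.6 and 51.0 CPM in ET1-like to 105, 101 and 102 CPM in M3-like nuclei, and its mitral minus tufted difference was 0.23 ± 0.077 (edgeR adjusted p = 0.025, short of the fold threshold). Tbx15 was at 2.80 CPM in both sets of nuclei and no difference between subclusters was found (edgeR adjusted p = 0.61). Tbx6 had 210 UMIs in the subclustered nuclei and 261 in the others, Tbx20 had 51 and 31, Tbx2 had 37 and 163, and Tbx5 had 13 and 14. Each of the others, T, Tbx1, Tbx3, Tbx4, Tbx10, Tbx18, Tbx19 and Tbx22, had at most 9 UMIs in the 7504 subclustered nuclei. Apart from the members and Mga, no T-box gene on the list exceeded 2.80 CPM in the subclustered nuclei. As Tbx21 and Eomes are also genes of lymphocytes, 8 markers of T cells and natural killer cells were counted: Cd3e, Cd3g, Cd3d, Cd8a, Nkg7, Prf1 and Ifng had 1 to 8 UMIs each in the subclustered nuclei, and Ptprc, which microglia also use, had 98.

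Among 12 factors linked to the making of glutamatergic neurons, 8 were tested and all of them differed between subclusters, while 2 were called higher in mitral and 2 higher in tufted types (median log2 difference -0.40, against -0.01 over all genes). Over all genes tested, 66.6% differed between subclusters, 5.69% were called higher in mitral and 3.57% higher in tufted types. Neurod2, a proneural factor of cortical neurons, was higher in tufted types (mitral minus tufted, -1.92 ± 0.34, edgeR adjusted p = 5.4e-05) and, among the named types, had its highest means in ET4-like (39.3 CPM) and ET1-like nuclei (19.98 CPM), as Eomes did. Neurod6 was higher in tufted types by a similar amount (-1.82 ± 0.37). Both genes overlapped between the classes. ET2-like (0.97 CPM) and T1-like nuclei (4.64 CPM) had lower means of Neurod2 than M3-like nuclei (5.66 CPM). For Neurod6, ET2-like nuclei (0.34 CPM) had a lower mean than M3-like nuclei (7.39 CPM). The means of Neurod6 in T1-like, ET1-like and ET4-like nuclei were higher, at 10.9 to 16.7 CPM. Insm1, a zinc finger factor of neuroendocrine and newborn neurons, was higher in mitral types (1.82 ± 0.42, edgeR adjusted p = 0.0012), with its highest mean in M3-like nuclei (17.1 CPM). M2-like nuclei (2.66 CPM) had a lower mean of Insm1 than ET4-like nuclei (4.98 CPM). M1-like nuclei had 12.4, 1.92 and 0 CPM of Insm1 in mice 1, 2 and 3, the first from the 14-nucleus library. Lhx2, a LIM homeobox factor, was also higher in mitral types (1.80 ± 0.16) and lowest in ET2-like nuclei (3.04 CPM), the type with the most Tbr1. The classes overlapped for Lhx2, as T1-like nuclei (36.1 CPM) had a higher mean than M2-like nuclei (27.6 CPM). M1-like nuclei had 68.1, 28.6 and 23.5 CPM of Lhx2 in mice 1, 2 and 3, the first from the 14-nucleus library.

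Among 10 genes linked to Tbr1 in the cortex as partners, targets or factors of neighbouring layers, 8 were tested, 3 were called higher in mitral types and none higher in tufted types (median log2 difference 0.12), where 5.69% and 3.57% of all genes were. Reln, which codes for the secreted glycoprotein reelin and is known as a Tbr1 target, was higher in mitral types (1.61 ± 0.089). Its lowest mean, 78.4 CPM, was in ET4-like nuclei, against 1794 CPM in ET2-like and 2349 CPM in M1-like nuclei, so the type with the most Tbr1 was not the one with the most Reln. The classes overlapped, as T1-like (1944 CPM) and ET2-like nuclei had higher means than M3-like nuclei (1776 CPM). Sox5 (2.89 ± 0.15) and Foxp2 (2.36 ± 0.15) were higher in mitral types too, and Bcl11b was at -0.76 ± 0.12, short of the fold threshold. Foxp2 was highest in M1-like nuclei (313 CPM), while M2-like nuclei (19.98 CPM) had a lower mean than ET2-like nuclei (28.3 CPM). The Sox5 mean of ET2-like nuclei (672 CPM) was near that of M2-like nuclei (718 CPM). Of 7 markers of mitral and tufted cells, 6 were tested, and Lbhd2 (2.60 ± 0.26) and Reln were called higher in mitral types. Slc17a6, a vesicular glutamate transporter, was at -0.85 ± 0.11, and Slc17a7, another one, at 0.40 ± 0.10, both short of the fold threshold.

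Over the 27 libraries of the fit, the members' own patterns were unlike each other. Pearson's r of log2(CPM + 1) was -0.65 for Eomes and Tbx21, -0.46 for Tbr1 and Tbx21 and -0.14 for Tbr1 and Eomes. The genes closest to Eomes, among genes with a mean of at least 5 CPM, were Patj (r = 0.95), Ogfrl1 (0.93), Rhobtb3 (0.90), Olfm1 (0.89) and Vldlr (0.87). Closest to Tbx21 were Tmtc2 (r = 0.90), Gm26954 (0.89), Unc80 (0.88), Gm36251 (0.88) and Frmd4b (0.87). For Tbr1 they were Dach1 (r = 0.81), Grik4 (0.80), Pnrc2 (0.80), Tspan2 (0.79) and Slc24a3 (0.79). Libraries of 1 mouse or 1 type are not independent, and the values are descriptions. The first genes for Tbr1 depended on single mice: of the 5, none stayed among the first 5 without mouse 1, 3 without mouse 2 and 1 without mouse 3.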

How the data were processed

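Nuclei of 3 mice were sequenced with 10x Chromium 3′ v3 chemistry. UMIs per gene and barcode were counted by the authors in Cell Ranger (version 3.0.2 in the matrix header) on mm10, also called GRCm38 (per the submitters' processing notes), and these raw counts were deposited. The annotation release and the use of intronic reads are not given in the sources used here. The authors kept nuclei with at least 1000 genes and at most 5 percent mitochondrial UMIs, merged the mice and clustered the nuclei, and the deposited table gives each nucleus its cluster and subcluster, UMI and gene counts and mitochondrial percent. Its 6 columns of corrected counts and map positions were not used. All 31703 retained nuclei passed that filter, as did 1 further barcode.

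The 3 members were taken by name. Members and gene lists were chosen with earlier results of these data known. Groups were named from marker genes. Counts were summed per mouse and subcluster (27 libraries of 161593 to 16961469 UMIs) and tested with edgeR 4.0.16 (filterByExpr, TMM, quasi-likelihood, Benjamini-Hochberg adjustment). DESeq2 1.42.0 was an alternative, with other scaling, no filter, named subclusters only, each mouse left out, a mouse term and no marked doublets (Scrublet in scanpy 1.11.5; doublets were otherwise kept). Libraries of 1 mouse come from 1 animal, so a mouse term pairs them: their deviations from subcluster means correlated at 0.12 on average between subclusters, against -0.057 between mice. Nuclei were thinned without replacement to 3000 UMIs. Genes named in the text are the members, other T-box genes, genes overlapping a member, up to 4 genes of each list by mitral minus tufted difference, and the 5 genes most like each member. The procedures were tested on simulated data.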

Additional observations from a re-analysis of the deposited data

Results flagged for a closer look

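Members' UMIs were also present in the 12720 called barcodes outside the deposited annotation, which had medians of 732 to 808 UMIs and entered no comparison. The values are given because these barcodes lie outside the data compared above. In these barcodes Eomes was at 74.5, 138 and 89.5 CPM in mice 1, 2 and 3, against 129, 119 and 87.3 CPM in the subclustered nuclei of the same mice. Tbr1 was at 8.55, 19.2 and 14.8 CPM, against 15.8, 16.9 and 14.3 CPM in the subclustered nuclei. Tbx21 was at 65.4, 13.3 and 24.3 CPM, against 49.7, 40.4 and 46.2 CPM. The Tbx21 value of mouse 1 came from 130 UMIs in 58 barcodes, of which 1 barcode held 13.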

How the results depend on the processing

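In the mitral against tufted comparison, the direction of each member and its side of the threshold were the same under all 10 alternatives. Leaving out a mouse gave log2 differences of -1.49 to -1.05 for Tbr1, -0.78 to -0.69 for Eomes and 2.64 to 2.81 for Tbx21. The mouse as a replicate block changed 1 call of a member, Tbr1 between M1-like and M2-like nuclei (-1.005), and no other. Calls that single mice or the scaling ended stand beside the results. Without a mouse, 11 to 15 pairs were called for Tbr1, 10 to 12 for Eomes and 15 to 17 for Tbx21. Signs changed only in pairs that were not called: Tbr1 in M2-like against T1-like (0.11 without mouse 1, range without a mouse -0.44 to 0.11) and M3-like against ET4-like nuclei (0.16 without mouse 3, range -0.38 to 0.16), Eomes in M3-like against T1-like nuclei (-0.0068 with no filter, -0.064 without mouse 1, range -0.064 to 0.24), and Tbx21 in M3-like against ET2-like nuclei (-0.35 without mouse 3, range -0.35 to 0.32, -0.044 without marked doublets) and M1-like against M2-like nuclei (-0.11 with DESeq2, -0.025 with no filter, -0.0092 with named subclusters only, -0.089 without mouse 2, -0.14 without mouse 3, range -0.14 to 0.24). The cause was not tested.

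Depth sets the detection shares. With 2000 UMIs, 5000 UMIs and no thinning, Tbr1 was found in 3.46%, 7.62% and 16.7% of subclustered nuclei, Eomes in 20.2%, 37.5% and 63.5%, Tbx21 in 7.06%, 13.5% and 29.7%, and no member in 70.8%, 48.7% and 20.8%. All 3 members were found in 0.19% with 5000 UMIs and 2.30% with no thinning. With Malat1 and mitochondrial genes left out of the denominator, Tbr1 was at 17.1 CPM in projection neurons and Tbx21 at 1.42 CPM in inhibitory nuclei, where it was at 1.12 CPM without marked doublets. Leaving out a mouse kept 0 to 3 of the first 5 genes for Tbr1, 3 to 4 for Eomes and 3 to 4 for Tbx21.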
